A study of Mus musculus with 8 samples.

Results

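The transient receptor potential (TRP) channels, the polycystins and the mucolipins were followed in RNA-seq counts from cells of the neonatal mouse cochlea. Members were all protein-coding genes whose symbol in the NCBIM37 annotation starts with Trpa, Trpc, Trpm or Trpv and a number or with *Pkd1* or *Pkd2*, or is *Mcoln1*, *Mcoln2* or *Mcoln3*. This rule found 33 genes, among 36536 genes with counts and 21408 annotated protein-coding genes. They are 1 TRPA, 7 TRPC, 8 TRPM, 6 TRPV and 3 mucolipin (TRPML) genes, 3 genes of the polycystin-2 family (TRPP) and 4 of the polycystin-1 family. The remaining member, *Trpc4ap*, matches the rule by its name but encodes a protein that binds a TRPC channel and is no channel itself.

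The study sorted supporting cells, the cells that surround and hold the sensory hair cells, from the cochleas of Lfng-EGFP BAC transgenic mice (HM340Gsat, B6;FVB background). All 4 groups came from this line, at postnatal day 1 (P1) or 6 (P6), and none of them was treated. GFP+ cells were the brightest fraction of the sort. The transgene marks Deiters' cells, outer pillar cells and the border and phalangeal cells beside the inner hair cells. Inner pillar cells are not marked. GFP- cells were unlabeled cells of the dissociated tissue, and cells with low GFP were not collected. The lateral wall had been separated at P1 and partly removed at P6 before dissociation. Each group has 2 libraries, each made from many pooled cells, and the labels do not say whether these came from separate animals, so that p-values measure the spread between these libraries only.

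TRP channels are cation channels of the plasma membrane, of organelles and of cilia, and most of them let calcium through. The TRPC channels open downstream of phospholipase C, the TRPV, TRPM and TRPA channels answer to heat, osmotic stress, irritants, lipids or internal calcium, and the mucolipins release calcium from lysosomes and endosomes. Polycystin-1 proteins are large receptor-like partners of the polycystin-2 channels, and both are best known from the primary cilium. In the inner ear, mutant forms of a mucolipin are known for causing deafness, and TRPV4 is known from several cochlear epithelia.

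The libraries held between 17769024 and 67695039 counts on genes, with the smallest total in P6 GFP+ replicate 1. Levels are given as CPM, the counts of a gene per 1000000 counts of this total, and 3 counts correspond to 0.0443 CPM in the deepest and 0.169 CPM in the shallowest library. The 7 supporting cell markers on the list summed to between 4763 and 7519 CPM in the GFP+ libraries and between 187 and 262 CPM in the GFP- libraries, so the label of the GFP+ cells held against its markers. The hair cell markers *Otof*, *Atoh1*, *Pou4f3* and *Myo7a* were also higher in each GFP+ library than in the GFP- libraries of its age. *Slc17a8* was not, with overlapping fractions at both ages (4.43 and 4.58 CPM in P1 GFP+, 4.51 and 5.28 CPM in P1 GFP- cells). *Myo6* was higher in GFP+ cells at P1 only, and at P6 its GFP+ libraries (250 and 325 CPM) overlapped the GFP- libraries (312 and 340 CPM). *Myo6* alone made up 61.1% to 92% of the sum of the 6 found, and the other 5 summed to 237 and 303 CPM in P1 GFP+, 148 and 158 CPM in P6 GFP+ and 26.9 to 48.5 CPM in GFP- libraries. Among them, *Otof* was at 151 and 191 CPM in P1 GFP+ and 18.2 and 16.6 CPM in P1 GFP- cells, and *Atoh1* at 7.62 and 9.48 CPM in P1 GFP+ but 0.844 and 1.04 CPM in P6 GFP+ cells. The part of hair cells in the members higher in GFP+ cells was not tested. P6 GFP+ replicate 2 stood apart from replicate 1: over 751 genes that were at least 16-fold higher in P1 GFP- than in P1 GFP+ cells, its median difference from replicate 1 was 1.04 on the log2 scale. Between the P1 GFP+ replicates this median difference was -0.000611. The 751 genes had been chosen with the P1 libraries, and 0.5 CPM was added to each value before the log. The P1 value was thereby bound to lie near 0 and is no independent comparison for the P6 value. For several members the P6 difference without P6 GFP+ replicate 2 is also given.

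**Figure D1:**
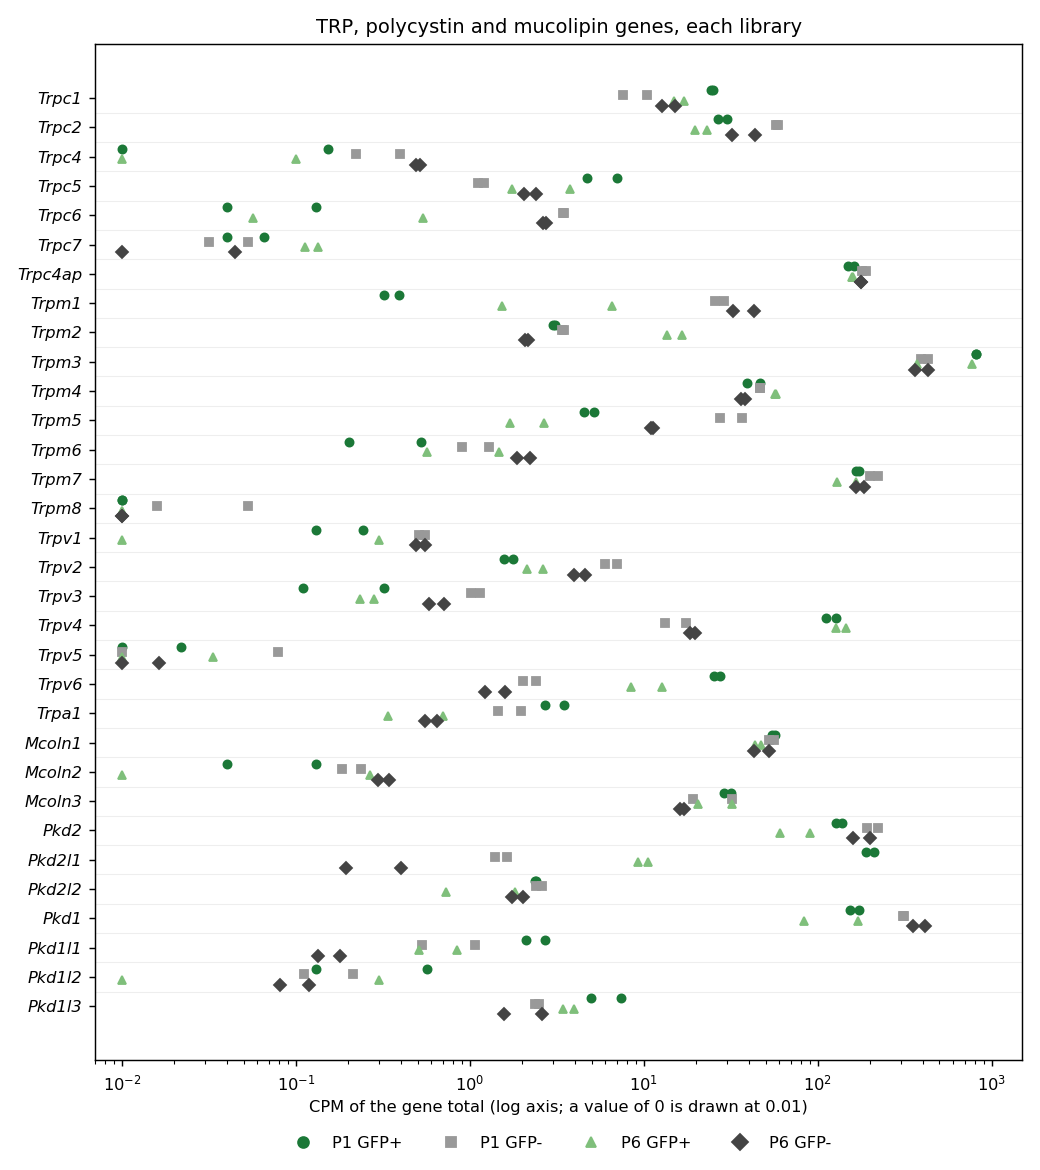
CPM of the gene total for 32 members (rows) in each of the 8 libraries on a log axis, with 1 point per library and a value of 0 drawn at 0.01. *Trpm3* lies farthest right in each library, but in P6 GFP- cells its points (360.4 and 428 CPM) overlap those of *Pkd1* (353 and 414 CPM). *Pkd2l1* spans the range from 0.195 CPM in P6 GFP- replicate 1 to 209 CPM in P1 GFP+ replicate 2.

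Most members were low and a few carried most of the counts. A mean of at least 10 CPM was reached by 13 members in P1 GFP+, 13 in P1 GFP-, 13 in P6 GFP+ and 14 in P6 GFP- cells, and 11, 8, 11 and 11 members stayed below 1 CPM. All 33 members together took between 1153 and 2033 CPM of a library. *Trpm3* alone made up 41.6% and 40.1% of this sum in P1 GFP+ cells, 25.5% and 24.2% in the P1 GFP- libraries, 32.3% and 44.4% in the P6 GFP+ libraries, and 24.7% and 25.4% in the P6 GFP- libraries.

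Levels of different genes were compared per kilobase of merged exon length, with *Trpc4ap* left out of the order. In P1 GFP+ cells the order was led by *Trpm3* (98.7 ± 0.383 CPM per kilobase, SD, n = 2), *Pkd2l1* (56.2 ± 4.16) and *Trpv4* (29.3 ± 2.85), and the replicates of these neighbors did not overlap. *Mcoln1*, *Trpm7*, *Pkd2* and *Pkd1* followed in P1 GFP+ cells with means between 11.4 and 15.8 CPM per kilobase. *Trpm4*, *Trpv6* and *Mcoln3* came next at 8.98, 8.96 and 8.73 CPM per kilobase, with replicates that overlapped from each to the next. In P1 GFP- cells, *Trpm3* at 49.7 ± 3.26 CPM per kilobase was followed by *Pkd1* (21.8 ± 0.127) and *Pkd2* (20.2 ± 2.10), the latter with replicates that overlapped those of *Trpm7* (18.6 ± 1.45).

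At P6 the order in GFP+ cells was *Trpm3* (69.1 ± 33.8 CPM per kilobase), *Trpv4* (33.5 ± 3.29), *Trpm7* (13.0 ± 2.26) and *Mcoln1* (12.9 ± 0.789), the last pair with overlapping replicates. *Pkd2l1* stood in place 11 of this order, with 2.82 ± 0.266 CPM per kilobase, against place 2 at P1. In P6 GFP- cells the order was again *Trpm3* (47.9 ± 5.77), *Pkd1* (27 ± 3.03) and *Pkd2* (17.7 ± 2.77), with *Trpm7* (15.4 ± 1.09) overlapping *Pkd2*. The same polycystin pair thus followed *Trpm3* in the GFP- cells of both ages.

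The quasi-likelihood test of edgeR was run over all genes for GFP+ against GFP- cells, and a gene passed when p and the Benjamini-Hochberg adjusted p were below 0.01. Of the further criteria of the study, a fold change above 4 was applied here as a second step, while its minimum RPKM and its requirement that a second program call the gene too were not. At P1, 27 of the 33 members had enough counts to be tested, and 7 of them were higher and 8 lower in GFP+ cells. This is 55.6% of the members tested, against 37.3% of all 18682 genes tested, of which 16.6% were higher and 20.7% lower. With the fold of 4 as well, 4 members were higher (*Pkd2l1*, *Trpv6*, *Trpv4* and *Trpc5*) and 4 were lower, among them *Trpm1*, *Trpc6* and *Trpm5*, where 6.46% and 11.4% of all genes met these criteria.

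At P6, 29 members were tested, of which 4 were higher (*Pkd2l1*, *Trpv6*, *Trpv4* and *Trpm2*) and 1 lower (*Trpm5*) in GFP+ cells. All 5 met the 4-fold criteria, as did 4.88% (higher) and 3.1% (lower) of all genes. They make 17.2% of the members tested, against 12.9% of all 18294 genes, with 7.72% higher and 5.19% lower. The median log2 fold change of the members was -0.06 at P1 and -0.26 at P6, beside 0.01 and -0.02 for all genes tested. The GFP+ and GFP- libraries did not overlap in CPM for 9 members that were higher and 15 that were lower at P1 (34.5% and 44.9% of all genes), and for 8 and 15 at P6 (35.7% and 37.6%). The P6 counts rested on single libraries. Without P6 GFP- replicate 2 no gene reached an edgeR adjusted p below 0.01, and those of *Pkd2l1* and *Trpv4* were 0.0139 and 0.0166. Leaving out P6 GFP- replicate 1 gave 2 members higher and 0 lower (1.97% and 0.0385% of all genes), and leaving out P6 GFP+ replicate 2 gave 5 and 10 (17.9% and 22.6% of all genes), so the calls over all genes moved with those of the members.

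**Figure D2:**
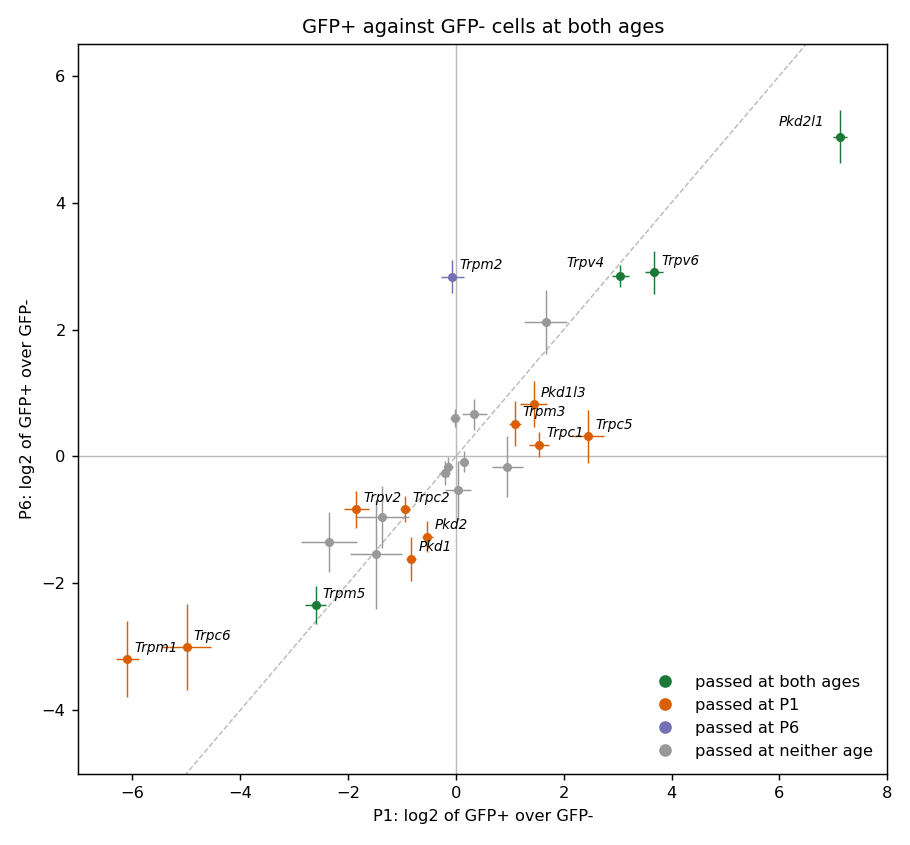
log2 fold change of GFP+ over GFP- cells at P1 (x axis) and at P6 (y axis) for members tested at both ages, with bars of 1 standard error and colors for the test (adjusted p below 0.01, edgeR). *Trpm2* lies near 0 on the P1 axis and at 2.83 on the P6 axis, while *Pkd2l1* (7.12 and 5.04) is farthest to the upper right.

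Members higher in GFP+ cells were led by *Pkd2l1*, a polycystin-2 family channel best known from sour-sensing taste cells and from neurons that contact the cerebrospinal fluid. This gene (ENSMUSG00000037578) lies on chromosome 19 of NCBIM37, from 44222127 to 44266932 on the minus strand. In P1 GFP+ cells it was at 188 and 209 CPM, and in P1 GFP- cells at 1.4 and 1.63 CPM. At P6 it was at 9.29 and 10.6 CPM in GFP+ cells and at 0.195 and 0.399 CPM in GFP- cells. The groups did not overlap at either age, and the P6 libraries of each fraction lay below its P1 libraries. The fitted difference between fractions was 7.12 ± 0.128 (log2, SE) at P1 and 5.04 ± 0.419 at P6, or 139-fold and 32.9-fold, with edgeR adjusted p of 9.99e-06 and 0.00145. It passed at P1 in all 13 alternatives run and at P6 in 12 of 13, the exception being the fit without P6 GFP- replicate 2 (adjusted p 0.0139). Without P6 GFP+ replicate 2 the P6 difference was 4.97.

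*Trpv4*, a channel opened by osmotic swelling, warmth and lipids, was higher in GFP+ cells at both ages. It lies on chromosome 5 from 115072161 to 115108430 (minus strand, ENSMUSG00000014158). P1 GFP+ cells held 111 and 128 CPM and P1 GFP- cells 13.3 and 17.5 CPM. P6 GFP+ cells held 146 and 127 CPM and P6 GFP- cells 19.6 and 18.3 CPM. No library of one fraction reached the range of the other. The difference was 3.05 ± 0.153 at P1 (edgeR adjusted p 3.6e-05) and 2.84 ± 0.174 at P6 (edgeR adjusted p 0.0008), which is 8.30-fold and 7.16-fold. *Trpv4* lost the call at P6 in 1 of 13 alternatives, the fit without P6 GFP- replicate 2 (adjusted p 0.0166). With P6 GFP+ replicate 2 left out, the P6 difference was 2.96.

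*Trpv6*, a calcium-selective channel of calcium-absorbing epithelia, was the other TRPV gene that was higher in GFP+ cells. Values of 27.4 and 25.2 CPM in P1 GFP+ cells stood against 2.01 and 2.41 CPM in P1 GFP- cells. At P6 the pairs were 8.44 and 12.7 CPM in GFP+ and 1.59 and 1.23 CPM in GFP- cells. The fractions differed by 3.67 ± 0.173 at P1 (12.8-fold, edgeR adjusted p 3.03e-05) and by 2.90 ± 0.336 at P6 (7.48-fold, edgeR adjusted p 0.00356). *Trpv6* lies on chromosome 6 from 41570620 to 41586404, and its close relative *Trpv5* lies 15767 bases away on the same strand. *Trpv5*, which takes up calcium in the kidney, did not exceed 0.0792 CPM in any library. At P6 the *Trpv6* call was lost without either P6 GFP- library and under a test against a fold of 2 (largest adjusted p 0.0392), and without P6 GFP+ replicate 2 the difference was 2.60.

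**Figure D3:**
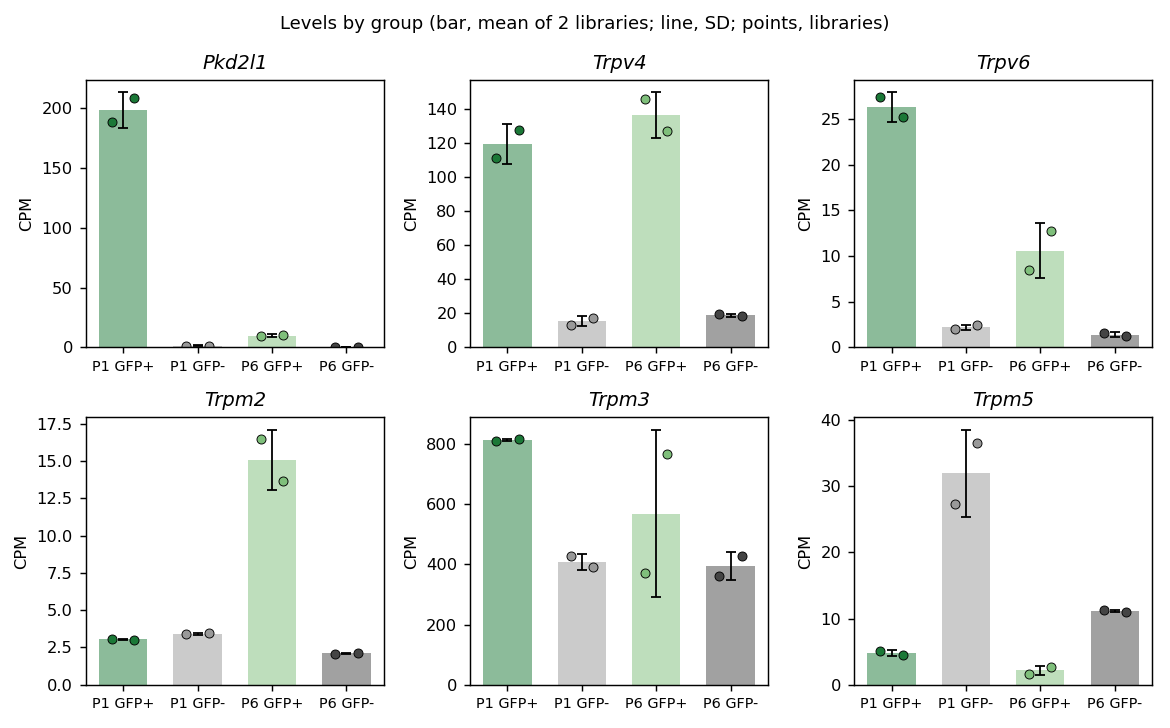
CPM of 6 members in the 4 groups on linear axes from 0, as bars for the mean of 2 libraries, lines for the SD and points for the libraries. *Pkd2l1* falls from a mean of 198 CPM in P1 GFP+ to 9.95 CPM in P6 GFP+ cells, and *Trpm2* stands at 15.1 CPM in P6 GFP+ cells against 2.10 to 3.42 CPM in the other groups.

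*Trpm2*, a calcium-permeable channel gated by ADP-ribose and known as a sensor of oxidative stress, was the 1 member that passed between fractions at P6 but not at P1. It lies on chromosome 10 from 77370467 to 77433308 on the minus strand (ENSMUSG00000009292). At P1 its values were 3.08 and 3.01 CPM in GFP+ and 3.38 and 3.47 CPM in GFP- cells. At P6 they were 16.5 and 13.6 CPM in GFP+ and 2.06 and 2.14 CPM in GFP- cells. The P6 GFP+ libraries thus stood above the other 6 libraries, which all lay below 4 CPM. The difference at P6 was 2.83 ± 0.255 (7.13-fold, edgeR adjusted p 0.00179), while at P1 the edgeR adjusted p was 0.828. It was 2.99 without P6 GFP+ replicate 2 and 2.72 without replicate 1, and the call at P6 was lost without either P6 GFP- library (largest adjusted p 0.0284).

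*Trpm3* was the most abundant member. It encodes a channel opened by neurosteroids and heat, and its gene spans chromosome 19 from 22213609 to 23064374 on the plus strand (ENSMUSG00000052387). P1 GFP+ cells held 810.3 and 815 CPM and P1 GFP- cells 428 and 390.1 CPM. In P6 GFP+ cells the libraries were far apart, at 372 and 765 CPM, and P6 GFP- cells held 360.4 and 428 CPM. The first P6 GFP+ library therefore lay inside the GFP- range and the second, which stood apart above, lay beyond it. At P1 the difference was 1.09 ± 0.108 (2.13-fold, edgeR adjusted p 0.000425), and it was lost in 2 of 13 alternatives, with all 8 libraries in the fit and under a test against a fold of 2 (largest adjusted p 0.252). At P6 it was 0.52 (edgeR adjusted p 0.305). It was -0.061 without P6 GFP+ replicate 2 and 0.98 without replicate 1, so the direction rested on replicate 2.

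The remaining members that were higher in P1 GFP+ cells were *Trpc5*, *Trpc1* and *Pkd1l3*. *Trpc5*, a receptor-activated channel of neurons that can pair with TRPC1, was at 7.0 and 4.70 CPM in P1 GFP+ and 1.11 and 1.20 CPM in P1 GFP- cells. Its difference was 2.45 ± 0.300 (5.47-fold, edgeR adjusted p 0.00103). At P6 the 2 GFP+ libraries, at 1.74 and 3.75 CPM, enclosed the GFP- values of 2.04 and 2.39 CPM. The P6 difference was 0.32 (edgeR adjusted p 0.598), and -0.33 without P6 GFP+ replicate 2. *Trpc1*, a subunit found in mixed TRPC channels, was at 24.8 and 24.2 CPM in P1 GFP+ and 7.60 and 10.4 CPM in P1 GFP- cells, a difference of 1.54 ± 0.181 (edgeR adjusted p 0.000866). P6 levels were 14.8 and 17.0 CPM in GFP+ and 12.8 and 15.1 CPM in GFP- cells, with overlapping groups. For both TRPC genes the fractions were apart at P1 and overlapped at P6.

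*Pkd1l3*, the polycystin-1 family partner of PKD2L1 in taste cells, was at 4.95 and 7.39 CPM in P1 GFP+ and 2.48 and 2.36 CPM in P1 GFP- cells. The difference was 1.44 ± 0.257 (edgeR adjusted p 0.00475). This call was lost in 4 of 13 alternatives, among them leaving out either P1 GFP+ library (largest adjusted p 0.0822). At P6 it was at 3.43 and 3.98 CPM in GFP+ and 1.57 and 2.60 CPM in GFP- cells. Both of its levels in GFP+ cells lay far below those of *Pkd2l1* at P1, and per kilobase no polycystin-1 family gene other than *Pkd1* was among the 12 highest members of any group.

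*Pkd1l1*, which pairs with polycystin-2 in the cilia that set left and right in the embryo, stayed short of the threshold. It was at 2.68 and 2.09 CPM in P1 GFP+ and 0.528 and 1.06 CPM in P1 GFP- cells, and at 0.506 and 0.837 CPM in P6 GFP+ and 0.178 and 0.133 CPM in P6 GFP- cells. The groups did not overlap at either age, with log2 differences of 1.67 ± 0.402 at P1 (edgeR adjusted p 0.0153) and 2.12 ± 0.505 at P6 (edgeR adjusted p 0.0262).

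Among the members lower in GFP+ cells, *Trpm1* stood farthest out at P1. It is known from retinal ON bipolar cells and from melanocytes, and it lies on chromosome 7 from 71298721 to 71414643 on the plus strand (ENSMUSG00000030523). P1 GFP+ cells held 0.393 and 0.321 CPM and P1 GFP- cells 28.8 and 25.5 CPM. P6 GFP+ cells held 1.52 and 6.56 CPM and P6 GFP- cells 32.4 and 42.9 CPM. The groups did not overlap, and P6 GFP+ replicate 2 was the highest of the GFP+ libraries. The difference was -6.09 ± 0.215 at P1 (edgeR adjusted p 1.41e-05) and -3.19 ± 0.601 at P6, where it did not pass (edgeR adjusted p 0.0132). Without P6 GFP+ replicate 2 the P6 difference was -4.61, and without replicate 1 it was -2.50.

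Melanocytes lie in the stria vascularis of the lateral wall, and 7 of the 8 symbols listed as their markers were matched. None of these 7 genes was at 0 in all libraries. Their summed level was 7.40 and 10.3 CPM in P1 GFP+, 514 and 366 CPM in P1 GFP-, 48.3 and 109.7 CPM in P6 GFP+, and 596 and 759 CPM in P6 GFP- cells. *Trpm1* amounted to between 3.11% and 6.96% of this sum in every library. In P1 GFP+ cells most of the sum came from *Pmel* (3.82 and 4.38 CPM) and *Kcnj13* (2.53 and 3.33 CPM). In GFP- libraries most of it came from *Dct* (210 to 572 CPM), so the share sets *Trpm1* against different genes in the fractions. The order of the libraries was nearly shared between the gene and the sum, and the part of these cells in the *Trpm1* result was not tested. In bulk samples, fewer cells of a type and less RNA per cell cannot be told apart. The lateral wall of the cochlea, which holds the stria, was also dissected differently at the ages, being separated at P1 and only partly removed at P6, so that age and dissection cannot be told apart.

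**Figure D4:**
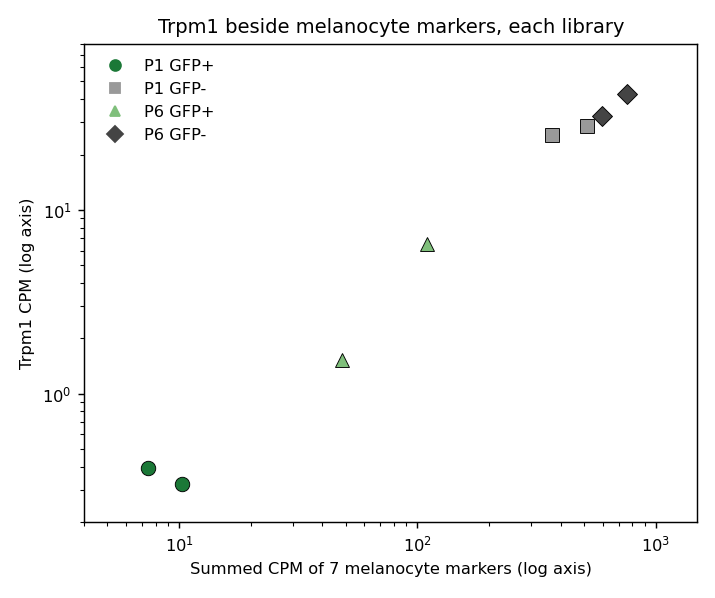
CPM of *Trpm1* (y axis) against the summed CPM of 7 melanocyte markers (x axis) in the 8 libraries, both on log axes. P1 GFP+ libraries lie at 0.321 and 0.393 CPM of *Trpm1*, P6 GFP+ libraries at 1.52 and 6.56 CPM, and the 4 GFP- libraries between 25.5 and 42.9 CPM.

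*Trpm1* and *Trpm3* each carry a microRNA gene in an intron on their own strand. *Mir211* lies in *Trpm1* (chromosome 7 of NCBIM37, 71350692 to 71350797) and *Mir204* in *Trpm3* (chromosome 19, 22825095 to 22825162). The mature 5p strands are shown because both hosts differed between fractions at P1, in opposite directions, while their microRNAs share a seed. They are RefSeq sequences of GRCm38.p6 (plus strands of chr7:64205831-64205852 and chr19:22750610-22750631), with the seed, bases 2 to 8, in capitals.
mmu-miR-211-5p: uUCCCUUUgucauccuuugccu
mmu-miR-204-5p: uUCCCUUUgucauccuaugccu
The 22-base sequences have the same seed and differ at 1 base, A17U from miR-204-5p to miR-211-5p, counted from the 5′ end. Mature microRNAs were not measured by these libraries. The hairpin genes themselves had at most 9 counts (*Mir204*) and 7 counts (*Mir211*) in any library.

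Promoter windows from 250 bases before to 50 bases after the start were matched in RefSeq (GRCm38.p6) for 28 of the 33 members, with 32 windows in all. They were searched on both strands for the E-box CACGTG, for a second E-box with the letters CATGTG, both read by the melanocyte factor MITF and by other proteins of its class, for TGGGAA, the core read by RBPJ in Notch signaling, and for ACAAT, a core read by SOX proteins. None of the 4 motifs contains another. CACGTG was found in 5 of the 32 windows, CATGTG in 6, TGGGAA in 8 and ACAAT in 8. Of 32851 windows in RefSeq they were found in 7.15%, 14.2%, 25.6% and 31%. Counted by member, some of which have several windows, they were found in 5, 5, 8 and 8 of the 28. *Trpm1* and *Trpm2* are shown because they are the member with the largest negative difference at P1 and the member whose fraction difference depended on age. Capitals mark the matches to the E-boxes on either strand.
*Trpm1*, first start, chr7:64153585-64153884, plus strand: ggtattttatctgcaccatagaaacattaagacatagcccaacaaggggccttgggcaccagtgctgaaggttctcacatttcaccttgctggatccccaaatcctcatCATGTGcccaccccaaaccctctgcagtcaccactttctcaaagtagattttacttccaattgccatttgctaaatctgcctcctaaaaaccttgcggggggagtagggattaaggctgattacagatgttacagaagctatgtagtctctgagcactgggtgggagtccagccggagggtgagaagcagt
*Trpm1*, second start, chr7:64185209-64185508, plus strand: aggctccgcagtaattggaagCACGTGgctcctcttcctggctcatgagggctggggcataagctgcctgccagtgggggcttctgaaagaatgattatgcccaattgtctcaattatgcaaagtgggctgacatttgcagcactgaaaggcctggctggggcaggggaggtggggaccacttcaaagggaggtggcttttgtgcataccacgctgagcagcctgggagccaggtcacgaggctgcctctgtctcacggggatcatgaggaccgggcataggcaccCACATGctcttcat
*Trpm2*, chr10:77969823-77970122, minus strand: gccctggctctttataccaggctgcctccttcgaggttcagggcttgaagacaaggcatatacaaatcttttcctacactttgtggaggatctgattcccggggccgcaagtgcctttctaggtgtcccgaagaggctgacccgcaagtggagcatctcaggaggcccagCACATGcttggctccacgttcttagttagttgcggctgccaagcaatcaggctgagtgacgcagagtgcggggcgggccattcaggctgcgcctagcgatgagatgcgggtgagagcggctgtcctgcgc
The motifs in *Trpm1* begin 141 bases before the first start, and 229 bases before and 37 bases after the second start. The match in *Trpm2* begins 80 bases before its start. No match to any of the 4 motifs was found in the windows of *Trpv4* and *Trpv6*. These are matches of letters, and binding was not measured.

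*Trpc6*, a channel opened by diacylglycerol, was lower in P1 GFP+ cells. It was at 0.131 and 0.0402 CPM in P1 GFP+ and 3.40 and 3.45 CPM in P1 GFP- cells, with a difference of -4.99 ± 0.449 (edgeR adjusted p 0.000296). In P6 GFP+ cells it was at 0.0563 CPM, which is 1 count, and 0.536 CPM, and in P6 GFP- cells at 2.72 and 2.61 CPM. That difference of -3.00 ± 0.671 did not pass (edgeR adjusted p 0.0215). It was -5.49 without P6 GFP+ replicate 2 and -2.29 without replicate 1, so 1 library decides its size. *Trpc7*, another TRPC gene, did not exceed 0.134 CPM in any library.

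*Trpm5*, a calcium-activated channel of taste and other chemosensory cells, was lower in GFP+ cells at both ages. P1 GFP+ cells held 5.17 and 4.54 CPM and P1 GFP- cells 27.2 and 36.5 CPM. P6 GFP+ cells held 1.69 and 2.68 CPM and P6 GFP- cells 11.2 and 11.0 CPM. The 4 groups did not overlap, and the P6 libraries of each fraction lay below its P1 libraries. The differences were -2.60 ± 0.196 at P1 (edgeR adjusted p 0.00015) and -2.34 ± 0.305 at P6 (edgeR adjusted p 0.00497). At P6 the call was lost in 3 of 13 alternatives, without either P6 GFP- library and under a test against a fold of 2 (largest adjusted p 0.041). It was -2.70 without P6 GFP+ replicate 2. Of its exon bases, 3.44% are shared with the antisense gene *Tssc4*.

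*Trpv2*, a channel of sensory neurons, muscle and macrophages, was at 1.77 and 1.57 CPM in P1 GFP+ and 5.96 and 7.04 CPM in P1 GFP- cells. The difference was -1.85 ± 0.231 (edgeR adjusted p 0.00112), and it was lost without either P1 GFP+ library (largest adjusted p 0.0145). At P6 it was at 2.14 and 2.64 CPM in GFP+ and 3.97 and 4.56 CPM in GFP- cells, where the edgeR adjusted p was 0.0771. The 6 macrophage markers summed to 7.83 and 5.83 CPM in P1 GFP+, 169.7 and 137 CPM in P1 GFP-, 21.7 and 54.2 CPM in P6 GFP+, and 371 and 328 CPM in P6 GFP- cells, and none of them was at 0 in all libraries. Endothelial markers summed to between 24.1 and 221 CPM in GFP+ and between 317 and 405 CPM in GFP- libraries, with the highest GFP+ value in P6 GFP+ replicate 2. Most of the GFP- sums came from *Emcn*, at 206 to 312 CPM there and 52.4 CPM in P6 GFP+ replicate 2. The other endothelial markers, *Cdh5* (52.4 CPM), *Pecam1* (32.9), *Kdr* (55.3) and *Tek* (27.8), were higher in that library than in both P6 GFP- libraries. Fibrocyte and cartilage markers summed to between 4929 and 8753 CPM in GFP+ and between 21141 and 40601 CPM in GFP- libraries. Most of each sum came from *Col2a1*, at 4656 to 7846 CPM in GFP+ and 15014 to 34336 CPM in GFP- libraries. Each other marker of this list was also lower in the GFP+ libraries than in the GFP- libraries of its age. *Pou3f4*, for example, was at 8.95 and 11.7 CPM in P1 GFP+ and 583 and 511 CPM in P1 GFP- cells. The part of these cell types in the members lower in GFP+ cells was not tested.

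*Pkd1* and *Pkd2*, the ciliary receptor and channel mutated in polycystic kidney disease, were abundant in all groups and lower in P1 GFP+ cells by less than a fold of 4. *Pkd1* was at 153 and 172 CPM in P1 GFP+ and 311 and 308 CPM in P1 GFP- cells, a difference of -0.83 ± 0.0908 (edgeR adjusted p 0.000659). P6 levels were 83.3 and 170.0 CPM in GFP+ and 353 and 414 CPM in GFP- cells, which did not pass (edgeR adjusted p 0.0193). The antisense gene *Tsc2* shares 4.07% of the exon bases of *Pkd1*. *Pkd2* was at 127 and 138 CPM in P1 GFP+ and 221 and 190.3 CPM in P1 GFP- cells, a difference of -0.53 ± 0.106 (edgeR adjusted p 0.00763). At P6 it was at 60.3 and 90.7 CPM in GFP+ and 160.2 and 200.1 CPM in GFP- cells (edgeR adjusted p 0.0135). For both genes no GFP+ library reached the GFP- range at either age. Without P6 GFP+ replicate 2 the P6 differences were -2.18 for *Pkd1* and -1.56 for *Pkd2*. The P1 calls were lost in 3 of 13 alternatives for *Pkd1* and in 5 of 13 for *Pkd2*, among them without P1 GFP+ replicate 1 for both and without P1 GFP+ replicate 2 for *Pkd2*.

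*Trpc2*, known from the rodent vomeronasal organ, was at 26.7 and 30.1 CPM in P1 GFP+ and 59.3 and 57.7 CPM in P1 GFP- cells, a difference of -0.94 ± 0.0932 (edgeR adjusted p 0.000432). P6 levels were 19.6 and 22.9 CPM in GFP+ and 32.0 and 43.3 CPM in GFP- cells (edgeR adjusted p 0.0287). The groups did not overlap at either age. The *Trpc2* model of NCBIM37 spans 31354 bases, while RefSeq on GRCm38.p6 places *Trpc2* within 13749 bases beside *Xndc1* and a readthrough gene of both, *Xntrpc*, whose symbols are not in the NCBIM37 annotation. Counts listed as *Trpc2* can therefore not be assigned to the channel alone.

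Several members were present in both fractions and passed no test at P1 or P6. *Trpm7*, a channel fused to a kinase that carries magnesium and calcium, was at 172 and 165 CPM in P1 GFP+, 222 and 198 CPM in P1 GFP-, 129 and 165 CPM in P6 GFP+, and 166 and 183 CPM in P6 GFP- cells. Its relative *Trpm6* was at 0.524 and 0.201 CPM in P1 GFP+, 1.29 and 0.903 CPM in P1 GFP-, 0.563 and 1.47 CPM in P6 GFP+, and 2.21 and 1.86 CPM in P6 GFP- cells. The P6 difference of *Trpm6* was -0.96 (edgeR adjusted p 0.182), and -1.83 without P6 GFP+ replicate 2. *Mcoln1*, the lysosomal channel whose loss causes mucolipidosis, was at 54.3 and 56.9 CPM in P1 GFP+, 55.7 and 52.3 CPM in P1 GFP-, 43.3 and 47.2 CPM in P6 GFP+, and 43.0 and 52.6 CPM in P6 GFP- cells. The groups of *Mcoln1* overlapped between fractions at both ages.

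*Mcoln3*, the mucolipin mutated in the deaf varitint-waddler mouse and known from hair cells and melanocytes, was at 31.5 and 28.8 CPM in P1 GFP+ and 19.2 and 31.9 CPM in P1 GFP- cells. At P6 it was at 20.4 and 32.2 CPM in GFP+ and 16.1 and 16.9 CPM in GFP- cells, so the fractions overlapped at P1 and were apart at P6 without a passed test. The P6 difference was 0.66 (edgeR adjusted p 0.0874), with 0.32 without P6 GFP+ replicate 2 and 0.99 without replicate 1. The neighboring gene *Mcoln2*, which starts 8026 bases beyond *Mcoln3* on the same strand of chromosome 3, did not exceed 0.341 CPM. *Trpm4*, a calcium-activated sodium channel, was at 39.4 and 46.3 CPM in P1 GFP+, 46.5 and 46.2 CPM in P1 GFP-, 56.7 and 57.3 CPM in P6 GFP+, and 36.1 and 38.2 CPM in P6 GFP- cells. Its P6 libraries were apart by 0.61 ± 0.143 and did not pass (edgeR adjusted p 0.0246). *Trpc4ap* was at 149 and 161 CPM in P1 GFP+, 179 and 188 CPM in P1 GFP-, 157 and 158 CPM in P6 GFP+, and 177 and 176 CPM in P6 GFP- cells.

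*Trpa1*, the channel of pungent irritants, was at 2.71 and 3.46 CPM in P1 GFP+, 1.95 and 1.46 CPM in P1 GFP-, 0.338 and 0.703 CPM in P6 GFP+, and 0.551 and 0.650 CPM in P6 GFP- cells. The P1 difference of 0.96 ± 0.285 did not pass (edgeR adjusted p 0.0324). *Trpv3*, a warmth-activated channel of skin, was at 0.109 and 0.321 CPM in P1 GFP+, 1.13 and 1.01 CPM in P1 GFP-, 0.281 and 0.234 CPM in P6 GFP+, and 0.584 and 0.709 CPM in P6 GFP- cells, with -2.35 ± 0.522 at P1 (edgeR adjusted p 0.0113). Both genes were apart between fractions at P1 and neither was past the threshold. *Pkd2l2*, a polycystin-2 relative known from testis, was at 2.40 and 2.37 CPM in P1 GFP+, 2.40 and 2.60 CPM in P1 GFP-, 0.732 and 1.81 CPM in P6 GFP+, and 1.73 and 2.02 CPM in P6 GFP- cells. Of the exon bases of *Pkd2l2*, 15.2% are shared with the antisense gene *Fam13b*, and with no strand setting given in the sources used here, reads of the pair cannot be told apart there.

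The other 7 members had a mean below 1 CPM in every group. *Mcoln2*, *Pkd1l2*, *Trpc4*, *Trpc7*, *Trpm8*, *Trpv1* and *Trpv5* did not exceed 0.562 CPM in any library, a value of *Pkd1l2* in P1 GFP+ replicate 2, and their highest count was 35. That count was of *Trpc4*, which was at 0 and 0.100 CPM in P6 GFP+ and 0.486 and 0.517 CPM in P6 GFP- cells. Its difference of -2.99 ± 0.804 did not pass (edgeR adjusted p 0.0369). *Trpm8*, the cold receptor, had 0 counts in all P1 GFP+, P6 GFP+ and P6 GFP- libraries, which allows up to 0.169 CPM in the shallowest of these. *Trpv1*, the capsaicin receptor, lies 6145 bases before *Trpv3* on chromosome 11 and was at 0.554 CPM or lower. It was at 0.131 and 0.241 CPM in P1 GFP+ and 0.554 and 0.507 CPM in P1 GFP- cells, which did not pass (edgeR adjusted p 0.0423). Limits from counts this low cover counting error only.

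The age comparison in GFP+ cells was tested for 24 members, of which 1 was higher at P6 (*Trpm2*) and 1 lower (*Pkd2l1*), both beyond a fold of 4 (1.63% and 0.93% of all genes). This is 8.33% of the members tested, against 4.81% of all 17213 genes, with 2.86% higher and 1.95% lower. *Pkd2l1* fell by 4.22 on the log2 scale (SE 0.138, 18.7-fold, edgeR adjusted p 0.00156) and passed in all 14 alternatives. *Trpm2* rose by 2.40 ± 0.231 (5.26-fold, edgeR adjusted p 0.00496) and lost its call in 2 of 14 alternatives, without P1 GFP+ replicate 2 and under a test against a fold of 2 (largest adjusted p 0.0379). Levels were lower at P6 than at P1 without overlap in 14 members (41.1% of all genes) and higher in 5 (29.3%). The members had a median log2 fold change of -0.30, beside -0.0024 for all genes.

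Below the threshold in this comparison, *Trpv6* stood at -1.22 ± 0.229 (edgeR adjusted p 0.024), *Trpa1* at -2.41 ± 0.431 (edgeR adjusted p 0.0214) and *Pkd1l1* at -1.71 ± 0.393 (edgeR adjusted p 0.0392). *Trpm1* stood at 3.56 ± 0.772 (edgeR adjusted p 0.0341), and at 2.16 without P6 GFP+ replicate 2 and 4.21 without replicate 1. *Trpm4* stood at 0.51 ± 0.129 (edgeR adjusted p 0.0495). With P6 GFP+ replicate 2 left out, *Pkd2l1* stood at -4.29 and *Trpm2* at 2.55. *Trpm3*, at -0.43 with all libraries (edgeR adjusted p 0.381), then stood at -1.0, and at -0.023 without replicate 1. Fits that leave 1 P6 GFP+ library take their spread from the P1 GFP+ libraries only, which limits the following counts. Without replicate 2, 4 members were higher and 12 lower at P6, where 22.5% and 20.7% of all genes were called. Without replicate 1 these were 5 and 6 members, and 20.8% and 14.5% of all genes.

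P6 GFP+ replicate 2 was above replicate 1 in CPM for 23 of the 26 members with a mean of at least 1 CPM in a group or past a test (88.5%), against 55.4% of the 15452 genes with a mean of at least 1 CPM. Their median ratio was 1.51, against 1.04 for all these genes. The ratio was 9.52 for *Trpc6*, 4.32 for *Trpm1*, 2.06 for *Trpm3* and 2.04 for *Pkd1*. *Trpm2*, *Trpv4* and *Trpv3* were the 3 members with ratios below 1, at 0.826, 0.870 and 0.833. Schwann cell markers also stood higher in replicate 2, with a sum of 2343 CPM against 1104 CPM, and supporting cell markers stood lower, with 4763 CPM against 6628 CPM. The part of these cells in the members' values was not tested.

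In GFP- cells, 29 members were tested between the ages, and *Trpm5* alone passed. This is 3.45% of the members tested, against 7.38% of all 18920 genes, of which 5.04% were higher and 2.34% lower. No member met the 4-fold criteria, which 1.43% and 0.418% of all genes met in the higher and lower direction. *Trpm5* fell by 1.33 on the log2 scale (SE 0.174, edgeR adjusted p 0.00356), a fold of 2.51 that is short of 4, and it lost the call in 4 of 14 alternatives, among them leaving out either P6 GFP- library (largest adjusted p 0.243). At an unadjusted p below 0.05 there were 12 members, against 34.5% of all genes, and the DESeq2 test called 3 members higher and 2 lower, against 10.7% and 6.64% of all genes. Of the 12, those lower at P6 included *Pkd2l1* at -2.15 ± 0.432 (edgeR adjusted p 0.0165), *Pkd1l1* at -2.17 ± 0.531 (edgeR adjusted p 0.0323) and *Trpa1* at -1.31 ± 0.346 (edgeR adjusted p 0.0418). Those higher at P6 included *Trpm1* at 0.66 (edgeR adjusted p 0.0287), *Pkd1* at 0.50 (edgeR adjusted p 0.0316), *Trpc1* at 0.81 (edgeR adjusted p 0.0343) and *Trpc5* at 1.13 ± 0.289 (edgeR adjusted p 0.0379). Libraries did not overlap for 16 members lower at P6 (48.9% of all genes) and 8 higher (20.5%). The P6 GFP- libraries rest on the dissection that left part of the lateral wall.

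Whether the ratio of GFP+ to GFP- cells differed between ages was tested as an interaction over all 8 libraries. Of 30 members tested, 1 passed with a higher ratio at P6 (0.946% of all 19233 genes) and 0 with a lower one (0.988%), by edgeR's quasi-likelihood test, where 1.93% passed in either direction. *Trpm2* also met the 4-fold criteria, as did 0.66% (higher) and 0.598% (lower) of all genes. In the same test 9 members had an unadjusted p below 0.05, against 21.2% of all genes, and the DESeq2 test called 2 members with a higher and 3 with a lower ratio, against 4.75% and 2.91% of all genes. *Trpm2* was the member that passed, with a ratio that was 2.89 ± 0.306 higher at P6 on the log2 scale (7.39-fold, edgeR adjusted p 0.00254). Without P6 GFP+ replicate 2 this value was 3.04. The ratio of *Pkd2l1* was lower by -2.10 ± 0.342 and did not pass (edgeR adjusted p 0.0121), and that of *Trpc1* by -1.37 ± 0.266 (edgeR adjusted p 0.0242). For *Trpc5* (edgeR adjusted p 0.0547) and *Trpm1* (edgeR adjusted p 0.0677) a difference between the ages was not shown either. *Pkd2l1* passed this test without either P6 GFP+ library, but these fits leave 1 library in that group and take their spread from the other groups. Its 18.7-fold fall in GFP+ cells stood beside a value of -2.15 in GFP- cells that did not pass.

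The other genes of the pathways were followed in a list of 49 partners, of which 48 were found, covering store-operated entry, phospholipase C, scaffolds, endolysosomal partners, cilia and epithelial calcium transport. At P1, 6 of 45 tested were higher and 14 lower in GFP+ cells, which is 44.4% of them, against 37.3% of all genes. At P6, 2 of 46 were higher and 1 lower, which is 6.52%, against 12.9% of all genes. The largest at P1 were *Os9* (0.94), a chaperone that holds TRPV4 in the endoplasmic reticulum, and the calcium pump gene *Atp2b1* (0.87) among those higher. *Cav1* (-4.86), the caveolar scaffold of TRPC channels, and the phospholipase gene *Plcb2* (-4.80), which acts above *Trpm5* in taste cells, led those lower. Beside its channel, *Plcb2* was at 0.218 and 0.281 CPM in P1 GFP+ and 8.87 and 5.96 CPM in P1 GFP- cells. At P6, *Calb1*, a calcium buffer (3.06, edgeR adjusted p 0.00164), and *S100a10*, the annexin partner that brings TRPV5 and TRPV6 to the membrane (1.83, edgeR adjusted p 0.00541), were higher, and *Pirt*, a regulator of TRPV1 (-2.19, edgeR adjusted p 0.00871), was lower.

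*S100a10* was the 1 partner that passed between the ages in GFP+ cells, of 44 tested (2.27%, against 4.81% of all genes), and the 1 that passed the interaction test, of 47 (2.13%, against 1.93%). It was at 22.5 and 20.4 CPM in P1 GFP+ and 52.9 and 53.6 CPM in P1 GFP- cells, and at 110.0 and 71.8 CPM in P6 GFP+ and 25.7 and 25.2 CPM in P6 GFP- cells. The fractions thus changed places between the ages. It rose by 2.18 in GFP+ cells (edgeR adjusted p 0.00749), and the interaction was 3.03 (edgeR adjusted p 0.00187), while *Trpv6* stood at -1.22 in the same cells. In GFP- cells 3 of 46 partners were higher and 3 lower at P6 (13%, against 7.38% of all genes), led by *Cyp24a1*, which degrades vitamin D (5.04, edgeR adjusted p 0.00157), and *Plcg2* (1.44, edgeR adjusted p 0.0033) upwards, and by *Pirt* (-2.02, edgeR adjusted p 0.00182) and the calcium pump gene *Atp2b4* (-0.99, edgeR adjusted p 0.0036) downwards.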

How the data were processed

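Per the file headers and the study's methods, the authors used TopHat (1.4.0 per the processing notes) to align paired-end reads to NCBIM37 (mm9) and deposited raw counts per Ensembl gene, made with HTSeq, for each of the 8 libraries. The counting mode and strand setting are not given in the sources used here. The 5 summary rows that name no gene were left out, and they held 23.8% to 35.3% of the listed reads. Symbols, positions and exon lengths came from the NCBIM37 annotation.

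CPM was computed here from the deposited counts as the count of a gene relative to the gene total of its library, scaled to 1000000. Each comparison was fitted over all genes on its 4 libraries with edgeR 4.0.16 in R 4.3.3 (filterByExpr, minimum count 10 and minimum total 15; TMM; quasi-likelihood test; Benjamini-Hochberg adjustment), and the interaction on 8. The standard error is the log2 fold change divided by the square root of F. The fits were tested on simulated counts. Alternatives included DESeq2 1.42.0. Figures used matplotlib 3.10.9.

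Members with a mean of at least 1 CPM in a group, or past a test, are described gene by gene, and up to 2 partners per direction. The gene counts and medians cover all members, of which 1 is not reported here. The members and gene lists were chosen with earlier results of these data known. The listed genes Tfeb, Gfi1 and Si were not matched by symbol. Marker sums not given with a result were 45.0 to 91.0 CPM for neurons in GFP+ and 93.6 to 526 CPM in GFP- libraries. The P1 GFP- libraries were far apart here, at 154 and 526 CPM. *Tubb3* (35.2 and 28.2 against 18.2 and 12.6 CPM) and *Prph* were higher in P6 GFP+ than in P6 GFP- cells, and the other neuron markers lower. Sums were 7.43 to 60.2 CPM in GFP+ and 8.10 to 21.7 CPM in GFP- libraries for marginal cells. The 60.2 CPM was in P6 GFP+ replicate 2, beside 7.43 CPM in replicate 1. For red blood cells they were 5.76 to 76.5 and 213 to 549 CPM.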

Additional observations from a re-analysis of the deposited data

Results flagged for a closer look

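*Trpm2* was flagged because the difference between GFP+ and GFP- cells was not the same at the ages. The interaction of age and fraction was 2.89 ± 0.306 on the log2 scale (edgeR quasi-likelihood test over 8 libraries, p 1.24e-05, adjusted p 0.00254). Both P6 GFP+ libraries (16.5 and 13.6 CPM) stood above the other 6 libraries. Over 16 alternatives the value stayed between 2.69 and 3.04, and the call was lost in 5 of them: without P1 GFP+ replicate 1 or 2, without P6 GFP- replicate 1 or 2, and under a test against a fold of 2 (largest adjusted p 0.0251). *S100a10*, a partner gene chosen by the same rule as the other partners, passed the same test at 3.03 (edgeR adjusted p 0.00187).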

How the results depend on the processing

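Fold changes were recomputed for the 26 members with a mean of at least 1 CPM in a group or past a test. None of the 50 of these with an adjusted p below 0.05 changed sign in 674 recomputed values, and 24 of the 50 passed the test. Among the other 78, 45 of 1115 recomputed values had the other sign, with a smallest adjusted p of 0.306. These include *Trpm3* (-0.061 to 0.98 at P6 with 1 library left out) and *Trpc5* (-0.33 to 0.78), both lowest without P6 GFP+ replicate 2. Library totals in place of TMM shifted the median of all genes by -0.10 at P1, by -0.19 between the ages in GFP- cells and by 0.12 in the interaction (log2), and they moved no count of members by over 1.5 times, nor did thinning to the smallest library.

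At P1, where 7 members were higher and 8 lower in GFP+ cells, a test against a fold of 2 (glmTreat) gave 4 and 5. Leaving out 1 library gave 6 to 9 higher and 5 to 11 lower, the lowest without P1 GFP+ replicate 1. At P6, the 1 member lower in GFP+ cells became 2 with DESeq2 size factors, 7 with the DESeq2 test, 7 with no filter on low counts, 7 with all 8 libraries in the fit, 8 at an adjusted p below 0.05 and 0 with glmTreat. Leaving out 1 library gave 0 to 7 higher (main 4) and 0 to 10 lower.

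Between the ages in GFP+ cells (1 higher, 1 lower), the DESeq2 test gave 2 and 3, no filter 2 and 5, all 8 libraries 2 and 3, and an adjusted p below 0.05 gave 3 and 4, while glmTreat gave 0 higher. Leaving out 1 library gave 0 to 5 higher and 1 to 12 lower. In GFP- cells (0 higher, 1 lower), the DESeq2 test gave 3 and 2, no filter 5 and 4, an adjusted p below 0.05 gave 4 and 5, and glmTreat 0 lower. Leaving out 1 library gave 0 to 2 higher and 0 to 4 lower, with 0 lower without either P6 GFP- library. For the interaction (1 higher ratio, 0 lower), the DESeq2 test gave 2 and 3, no filter 3 and 3, an adjusted p below 0.05 gave 2 lower and glmTreat 0 higher. Leaving out 1 library gave 0 to 3 and 0 to 4. The cause was not tested for any of these. A group left with 1 library is assumed to vary like the other.

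The groups share replicate numbers, and the labels do not say whether these pair the libraries. Over 15477 genes the replicate differences correlated by 0.036 between fractions at P1 and 0.059 at P6. Between the ages they correlated by -0.158 in GFP+ and -0.328 in GFP- cells. With 2 libraries per group, such correlations cannot tell whether libraries of the same number came from the same sort. With the replicate block, 5 members instead of 1 were lower in P6 GFP+ cells, and no other count moved by over 1.5 times. Crossed numbers, chosen after seeing the data, gave 1 higher and 1 lower in GFP+ and 1 higher and 3 lower in GFP- cells between the ages.

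Depth limits the 7 members with a mean below 1 CPM in every group, and 2 libraries per group limit every test.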
